A study of Mus musculus with 16 samples.

Results

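Crypt stem cell genes were followed here in the mouse ileum. They are 10 genes used to mark the stem cells at the base of intestinal crypts, or the reserve and progenitor cells around them: Lgr5, Olfm4, Ascl2, Smoc2, Axin2, Sox9, Bmi1, Lrig1, Slc12a2 and Tnfrsf19. They were chosen by name, are 10 of 21965 genes in the deposited count table, and all 10 were among the 13811 genes with enough reads to be tested. RNA-seq was performed on the terminal ileum of male C57BL/6 mice that were 8 to 10 weeks old at the start. WT mice were compared with heterozygous fat-1 littermates (written Fat1+/- in the labels), which carry a Caenorhabditis elegans n3 desaturase transgene in all tissues. The transgene is not a gene of the mouse table, so the genotype was not checked in the counts. EtOH-fed mice received a liquid diet for 6 weeks in which EtOH was raised in steps to 6%, the level of the last 3 weeks, and pair-fed (PF) mice received the same diet with maltose dextrin in place of EtOH. The PF diet was given to 4 WT mice and 4 fat-1 mice, and the EtOH diet to 3 WT mice and 5 fat-1 mice, each of which gave 1 library. Library numbers ran from all PF to all EtOH samples, so library order and diet cannot be told apart.

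The intestinal epithelium is renewed from stem cells that sit between Paneth cells at the crypt base. Wnt signals keep these cells dividing: Lgr5 is a receptor for R-spondins, which strengthen the Wnt signal, Ascl2 is a transcription factor that sets the stem cell state, and Axin2 is a feedback inhibitor switched on by the signal itself. Olfm4, a secreted glycoprotein that depends on Notch signalling, marks these cells in the small intestine and is hardly expressed in the mouse colon. Bmi1 and Lrig1 have been used to mark slower cycling cells, and Sox9 and the Na-K-2Cl cotransporter Slc12a2 are expressed over more of the crypt.

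Total counts per library ranged from 8422645 to 11438539, and 3 reads of a gene corresponded to 0.246 to 0.421 CPM, the read count scaled to a common library size after TMM normalization. Pan-epithelial markers were abundant in all 16 libraries, at a summed 10800 to 19600 CPM. Some libraries stood apart. Replicates 3 and 4 of fat-1 EtOH had 11200 and 12200 CPM of Car1, a carbonic anhydrase of the large intestine, and their 8 Paneth cell markers summed to 136 and 129 CPM against 6710 to 28200 CPM in the other 14 libraries. They are called the Car1-high libraries here. The distal large intestine markers Fxyd4, Hoxb13, Hoxd12 and Hoxd13 were at 0 to 2 reads in them and elsewhere. Replicate 2 of WT EtOH had 4040 CPM of Car1, but its Paneth cell markers summed to 10200 CPM. In replicates 2 and 4 of fat-1 PF the ileal bile acid handling genes summed to 491 and 439 CPM, against 1080 to 8300 CPM in all other libraries. The main results that rest on these libraries are given with and without them.

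The position and level of each gene were described first. Positions are on GRCm38 (mm10), from GENCODE M21. Olfm4 (ENSMUSG00000022026) is at chr14:79984081-80023139 on the plus strand. Lgr5 (ENSMUSG00000020140) is at chr10:115450311-115587780 on the minus strand, and Axin2 (ENSMUSG00000000142) at chr11:108920349-108950783 on the plus strand. Smoc2 (ENSMUSG00000023886) is at chr17:14279506-14404790 and Sox9 (ENSMUSG00000000567) at chr11:112782224-112787760, both on the plus strand. Slc12a2 is ENSMUSG00000024597. The other 4 are Ascl2 (ENSMUSG00000009248, chr7:142966829-142969264), Bmi1 (ENSMUSG00000026739, chr2:18677018-18686629), Lrig1 (ENSMUSG00000030029, chr6:94604529-94700158) and Tnfrsf19 (ENSMUSG00000060548, chr14:60963875-61046490). All are protein coding. Of the 75-base windows along the exons, 10.1% for Bmi1 also occur in Gm5946 and 2.71% for Olfm4 in Gm6999, so reads there are uncertain. Lrig1 shares 144 exon bases with Slc25a26 on the opposite strand, and Axin2 shares 209 with the antisense gene Gm11670; whether counting used strand is not given in the sources used here.

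Promoters were taken from RefSeq (GRCm38.p6), which held 6 of the 10 genes, as 250 bases before to 50 bases after the start. Olfm4, Axin2 and Lrig1 are printed because in the Car1-high libraries Olfm4 and Axin2 were low and Lrig1 was high, as given further on. Capitals mark CG dinucleotides. The Olfm4 window is chr14:80000052-80000351 on the plus strand, the Axin2 window chr11:108920099-108920398 on the plus strand and the Lrig1 window chr6:94700096-94700395 on the minus strand.
Olfm4: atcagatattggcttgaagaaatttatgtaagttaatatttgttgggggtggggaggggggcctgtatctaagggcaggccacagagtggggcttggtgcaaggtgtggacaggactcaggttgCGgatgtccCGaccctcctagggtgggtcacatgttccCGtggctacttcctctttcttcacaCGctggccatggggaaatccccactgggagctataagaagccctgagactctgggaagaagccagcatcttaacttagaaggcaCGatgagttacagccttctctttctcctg
Axin2: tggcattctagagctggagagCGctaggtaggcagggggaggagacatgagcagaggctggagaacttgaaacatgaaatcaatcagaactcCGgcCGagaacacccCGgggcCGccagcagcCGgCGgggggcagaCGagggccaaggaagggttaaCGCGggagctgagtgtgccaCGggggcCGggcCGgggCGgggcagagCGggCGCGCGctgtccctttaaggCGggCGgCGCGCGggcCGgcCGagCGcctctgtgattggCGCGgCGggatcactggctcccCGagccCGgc
Lrig1: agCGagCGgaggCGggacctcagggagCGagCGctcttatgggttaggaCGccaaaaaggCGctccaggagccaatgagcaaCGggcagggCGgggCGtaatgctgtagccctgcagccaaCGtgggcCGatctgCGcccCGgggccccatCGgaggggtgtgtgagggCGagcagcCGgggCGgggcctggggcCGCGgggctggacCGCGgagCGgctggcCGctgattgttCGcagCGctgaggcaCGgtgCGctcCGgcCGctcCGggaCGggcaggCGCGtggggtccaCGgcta
Olfm4 had 5 CG dinucleotides and a GC content of 52.3%, near the median of all promoters in that table (7 and 52.7%). Axin2 had 31 and 70.0%, and Lrig1 had 35 and 73.0%. The search covered 5 motifs on both strands. CTTTGAT and CTTTGAA, forms of the TCF/LEF site of the Wnt pathway, occur in 3.73% and 5.14% of the 32851 promoters of the table. The E-box CAGCTG occurs in 16.3%, TTTATG, a core of the CDX site, in 11.9%, and TATAAA in 13.6%. Among the 6 genes, TTTATG was found in Olfm4, 228 bases before the start. The Olfm4 start used lies inside the gene span given above, not at its edge. CTTTGAT (minus strand, 202 bases before the start) and CAGCTG (10 bases before) were found in the Tnfrsf19 window at chr14:61037938-61038237. That window also lies inside the gene span, and its end was not found in a GENCODE transcript of Tnfrsf19. A further Tnfrsf19 window held no match. The windows of Axin2, Lrig1, Ascl2 and Bmi1 held none of the 5, which says only that these letters are not in these windows.

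Levels per length set the order of the genes in WT PF mice. Olfm4 was highest at 129 ± 11.2 CPM per kb of exon (SD, n = 4), with no overlap with the next gene. Slc12a2 (13.2 ± 1.84 CPM per kb) and Axin2 (12.9 ± 3.23) overlapped each other, and Axin2 also overlapped Lrig1 (9.34 ± 0.852). Smoc2, a secreted matrix protein of crypt base cells, was at 7.81 ± 0.589 CPM per kb and overlapped Bmi1, a Polycomb group protein, at 6.57 ± 0.543. Sox9, a transcription factor of crypt cells, was at 3.83 ± 0.532 and overlapped Ascl2 at 2.58 ± 0.699. Lgr5 (1.34 ± 0.139 CPM per kb) and Tnfrsf19, a TNF receptor family member regulated by Wnt (1.12 ± 0.21), were lowest and overlapped each other. Thus, per length, the gene that gives the stem cells their usual name was among the least abundant of the 10 in whole ileum. The length used was that of all annotated exons of a gene joined. In CPM not divided by length Lgr5 averaged 13.8 in WT PF mice, above Ascl2 (4.19) and Tnfrsf19 (5.31). Per length Olfm4 was the most abundant in the PF groups and in WT EtOH without overlap. In fat-1 EtOH mice Olfm4 was at 64.2 ± 61.0 CPM per kb (n = 5) and overlapped Slc12a2 at 23.2 ± 9.30.

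**Figure D1:**
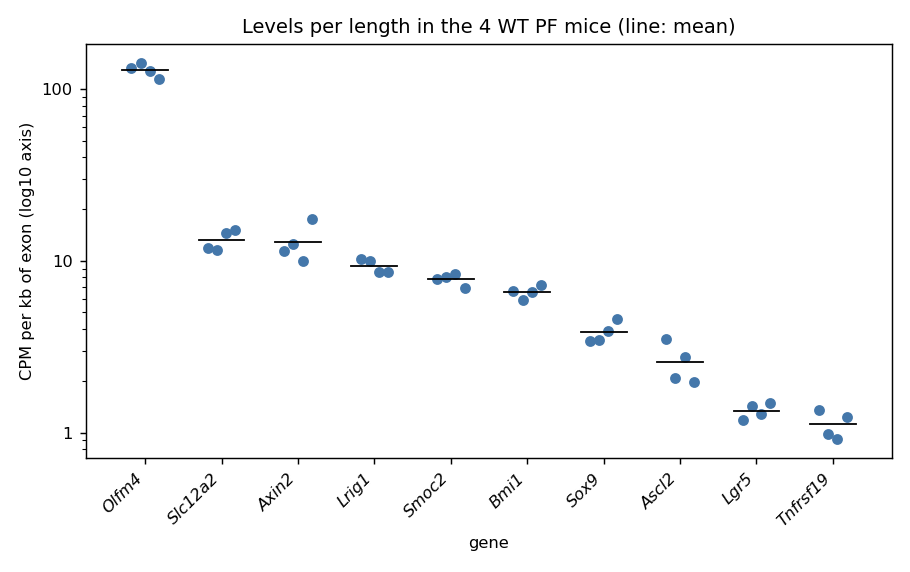
CPM per kb of exon (y axis, log10) of the 10 genes (x axis) in the 4 WT PF mice, with 1 point per mouse and a line at the mean. Olfm4 lies near 129 and apart from the rest, and Lgr5 and Tnfrsf19 lie at the bottom, at 1.34 and 1.12.

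The first comparison asked whether fat-1 mice differed from WT mice without EtOH. None of the 10 genes passed the test (edgeR quasi-likelihood, Benjamini-Hochberg adjusted p of at most 0.05 over all 13811 genes), and 0% of all genes did. At an unadjusted p under 0.05 there were 1758 genes (12.7%) and 0 of the 10, while DESeq2 called 189 genes and limma voom 30, again with 0 of the 10. Lgr5 had the largest difference. It was at 12.1, 14.6, 13.1 and 15.3 CPM in WT PF mice and at 11.8, 6.04, 12.3 and 7.0 CPM in fat-1 PF mice. Replicates 2 and 4 of fat-1 PF were low, replicate 1 lay just below the lowest WT PF mouse and replicate 3 just above it. The log2 fold change of Lgr5 was -0.57 (SE 0.27, edgeR adjusted p = 0.404), and it was -0.20 (SE 0.29) without replicates 2 and 4 of fat-1 PF.

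Axin2 gave the same picture. It was at 62.9, 69.6, 54.9 and 95.9 CPM in WT PF and at 70.1, 39.9, 59.7 and 36.6 CPM in fat-1 PF mice. Those fat-1 PF replicates, 2 and 4, were the lowest, and the log2 fold change of -0.46 (SE 0.38, edgeR adjusted p = 0.673) was -0.14 (SE 0.47) without them. The low ileal bile acid gene levels of those libraries stand beside both results, and so do the 8 Paneth cell markers, which summed to 6710 and 8970 CPM in them, 18400 and 24800 CPM in the other fat-1 PF mice and 21200 to 28200 CPM in WT PF mice. Their part in these results was not tested. Sox9 was lower in fat-1 PF (11.8 to 14.1 CPM) than in WT PF (14.1 to 18.8 CPM) with no overlap before rounding, as were 2.62% of all genes; 4.25% of all genes and 0 of the 10 were higher without overlap. Its difference stood at a log2 fold change of -0.30 (SE 0.38). Olfm4 was at 361 to 463 CPM in fat-1 PF against 341 to 420 CPM in WT PF. The log2 fold changes of Olfm4, Ascl2, Smoc2, Bmi1, Lrig1, Slc12a2 and Tnfrsf19 lay between -0.18 and 0.09. For Olfm4 the 95% interval ran from -2.19 to 2.38, since all 4 groups share 1 estimate of the spread.

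**Figure D2:**
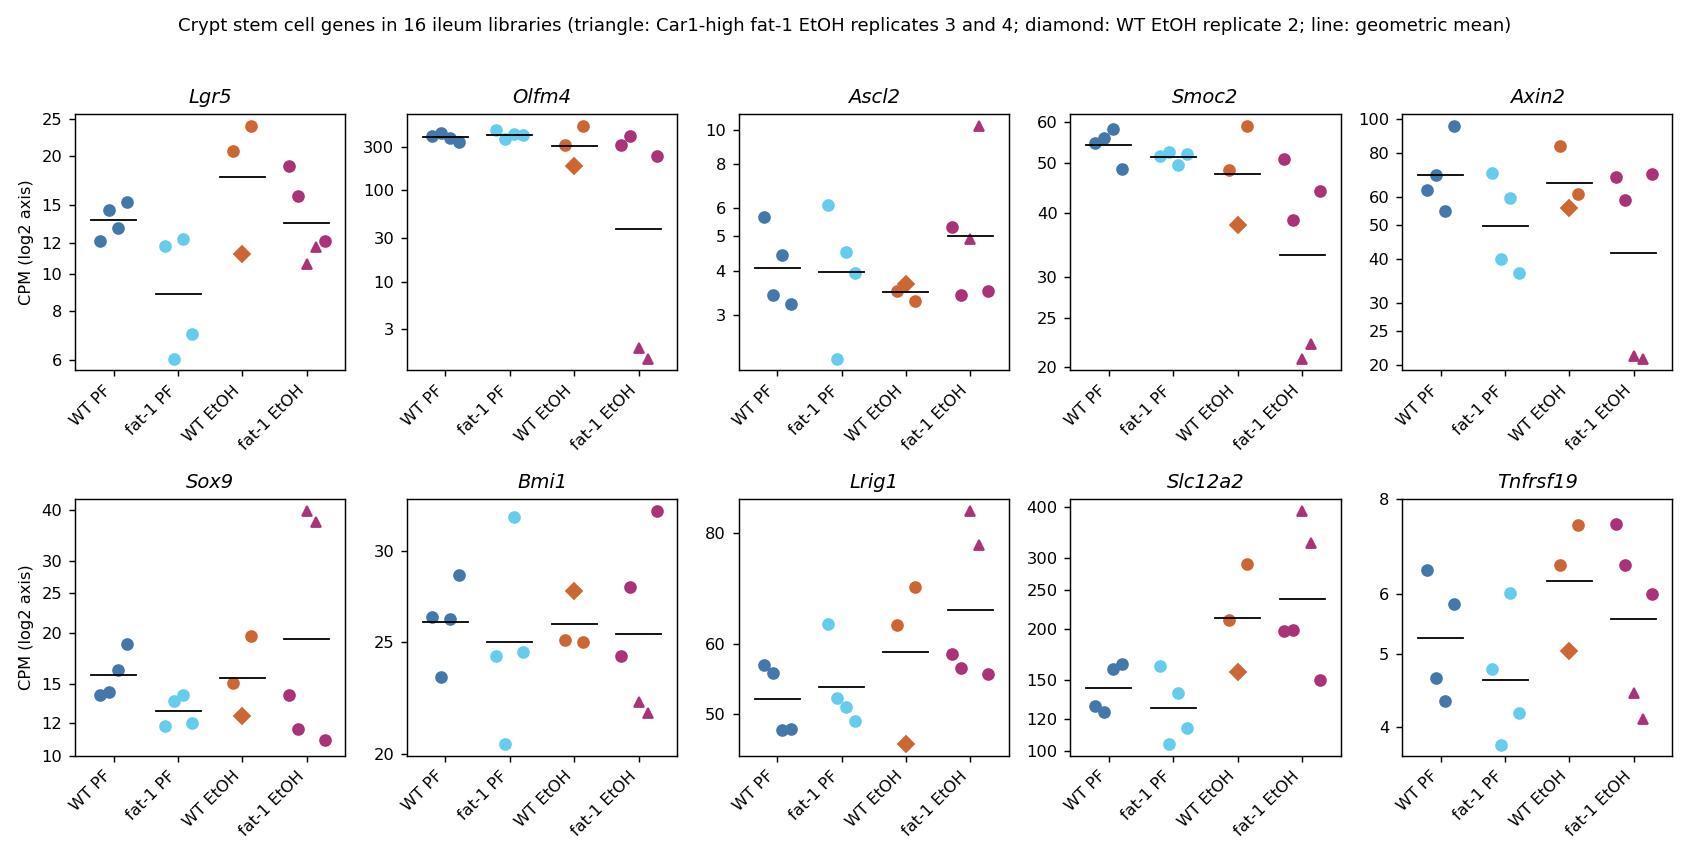
CPM (y axis, log2) of each gene in the 4 groups (x axis), 1 point per library, with a line at the geometric mean; triangles are replicates 3 and 4 of fat-1 EtOH and the diamond is replicate 2 of WT EtOH. The triangles lie far below the other points for Olfm4, Smoc2 and Axin2 and above them for Sox9, Lrig1 and Slc12a2.

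EtOH in WT mice was compared next, against the same WT PF mice. None of the 10 genes passed the test, against 0.0796% of all genes (11 of 13811, of which 0.00724% were higher and 0.0724% lower in WT EtOH). Unadjusted p was under 0.05 for 0 of the 10 and for 14.1% of all genes, and DESeq2 called 0 of the 10 and 1.86% of all genes. Slc12a2, which loads chloride for secretion in crypt cells, came nearest. It was at 129, 125, 159 and 164 CPM in WT PF and at 211, 157 and 290 CPM in WT EtOH mice. Only replicate 2 of WT EtOH, the library with 4040 CPM of Car1, lay within the PF range. The log2 fold change of Slc12a2 was 0.60 (SE 0.29, edgeR adjusted p = 0.367), and 0.80 (SE 0.31, edgeR adjusted p = 0.312) without replicate 2. With all 5 libraries that stand apart left out it was called, at 0.81 (SE 0.17, edgeR adjusted p = 0.0395), where 3.41% of all genes were. Limma voom with sample quality weights did call it, at 0.62 (adjusted p = 0.0209), in a fit that called 20.7% of all genes.

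Markers of some other cell types also tended higher or lower in WT EtOH than in WT PF mice, with 0 called. The 7 smooth muscle markers summed to 1990 to 2630 CPM in WT EtOH against 1090 to 1460 CPM in WT PF mice, without overlap (12.2% of all genes were higher without overlap). Their median log2 fold change was 0.86, with all 7 positive and 0 called. All 6 fibroblast markers were positive too (median 0.44, 0 called; 321 to 456 against 240 to 351 CPM), and all 8 Paneth cell markers were negative (median -0.41, 0 called; 10200 to 20600 against 21200 to 28200 CPM). Their part in the Slc12a2 and Lgr5 values was not tested.

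Lgr5 was at 20.7, 11.2 and 24.0 CPM in WT EtOH against 12.1 to 15.3 CPM in WT PF mice. Replicates 1 and 3 lay above all WT PF mice and replicate 2 below them. Its log2 fold change was 0.44 (SE 0.28, edgeR adjusted p = 0.498) and 0.70 (SE 0.28, edgeR adjusted p = 0.314) without replicate 2. Olfm4 was at 310, 185 and 510 CPM, with replicate 3 above and the other 2 below the WT PF range of 341 to 420 CPM. Smoc2 was at 48.3, 37.8 and 59.0 CPM, with replicate 2 again lowest. Without replicate 2 the log2 fold change of Olfm4 went from -0.19 to 0.10 (SE 1.34) and that of Smoc2 from -0.17 to -0.02 (SE 0.28). Sox9, Bmi1 and Axin2 had log2 fold changes of 0.00, -0.01 and -0.08, and those of Lrig1, Tnfrsf19, Smoc2, Olfm4 and Ascl2 lay between -0.27 and 0.25.

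In fat-1 mice EtOH, set against the same fat-1 PF mice as above, gave the only call. Slc12a2 rose by 0.96 on the log2 scale (SE 0.27, 95% interval 0.40 to 1.53, 1.95-fold, edgeR adjusted p = 0.0117); 37.4% of all genes were called in this comparison, so 1 of 10 is below the background. At an unadjusted p under 0.05 there were 4 of the 10 (Lgr5, Smoc2, Sox9, Slc12a2) and 47.9% of all genes. Slc12a2 was at 162, 104, 139 and 114 CPM in fat-1 PF and at 198, 199, 392, 327 and 150 CPM in fat-1 EtOH mice. The Car1-high replicates 3 and 4 were highest, and replicate 5 fell within the PF range, so the groups overlapped. Without the 2 Car1-high libraries the log2 fold change was 0.52 (SE 0.21, edgeR adjusted p = 0.0709) and no longer called. When WT EtOH replicate 2 was left out as well, the fold was nearly the same, 0.51, and it passed the threshold narrowly (SE 0.18, edgeR adjusted p = 0.0488). For Slc12a2, without replicates 2 and 4 of fat-1 PF the value was 0.75 (SE 0.34, edgeR adjusted p = 0.141). With all 5 libraries that stand apart left out it was 0.29 (SE 0.19, edgeR adjusted p = 0.292). All 7 smooth muscle markers (median 1.46) and 5 of 6 fibroblast markers were also higher and called in this comparison with all libraries. Their part in the Slc12a2 value was not tested. The WT and fat-1 responses share no samples, and their difference (interaction) for Slc12a2 was 0.36 (SE 0.39, edgeR adjusted p = 0.756).

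Lgr5 was at 18.9, 15.8, 10.6, 11.7 and 12.1 CPM in fat-1 EtOH, against 11.8, 6.04, 12.3 and 7.0 CPM in fat-1 PF mice. Replicates 1 and 2 lay above all fat-1 PF mice and the other 3 within their range. The log2 fold change was 0.57 (SE 0.26, edgeR adjusted p = 0.0949). Without the 2 Car1-high fat-1 libraries it was 0.77 (SE 0.28, edgeR adjusted p = 0.0527) and not called. It was called without all 3 EtOH libraries high in Car1, at 0.77 (SE 0.24, edgeR adjusted p = 0.0318), where 29.7% of all genes were called. It was 0.20 (SE 0.28, edgeR adjusted p = 0.613) without replicates 2 and 4 of fat-1 PF. The Lgr5 value therefore moved with which fat-1 PF libraries were kept. In bulk tissue fewer cells of a type and less RNA per cell cannot be told apart.

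Olfm4 had the widest spread of the 10. In fat-1 EtOH mice it was at 316, 393, 1.89, 1.43 and 239 CPM, and in fat-1 PF mice at 463, 361, 414 and 399 CPM. The Car1-high libraries held 23 and 16 reads of Olfm4 (Poisson 95% intervals of 1.20 to 2.84 and 0.817 to 2.32 CPM, for counting error only), and of the remaining 3, replicate 2 lay within the PF range and replicates 1 and 5 below it. Its log2 fold change of -1.11 had an SE of 1.01 (edgeR adjusted p = 0.400). Without the Car1-high libraries it was -0.34 (SE 0.26, edgeR adjusted p = 0.324).

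Smoc2 and Axin2 were low in the same libraries. Smoc2 was at 50.8, 38.7, 20.8, 22.2 and 44.1 CPM in fat-1 EtOH against 49.5 to 52.4 CPM in fat-1 PF mice, with a log2 fold change of -0.54 (SE 0.22, edgeR adjusted p = 0.0692). Axin2 was at 68.7, 58.9, 21.2, 20.8 and 69.8 CPM, with -0.11 (SE 0.36, edgeR adjusted p = 0.830). Only the Car1-high replicates 3 and 4 lay below the fat-1 PF range for Axin2. Without them Smoc2 was at -0.18 (SE 0.13) and Axin2 at 0.37 (SE 0.24).

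Sox9 went the other way. It was at 14.1, 11.6, 39.9, 37.4 and 10.9 CPM in fat-1 EtOH and at 11.8, 13.6, 14.1 and 12 CPM in fat-1 PF mice. The Car1-high libraries were the highest and the other 3 lay close to the PF range. Its log2 fold change was 0.82 (SE 0.36, edgeR adjusted p = 0.0866), and -0.05 (SE 0.17, edgeR adjusted p = 0.845) without the Car1-high libraries. Lrig1, a membrane inhibitor of growth factor receptors, was at 58.5, 56.4, 84.7, 77.6 and 55.5 CPM, with 0.31 (SE 0.15, edgeR adjusted p = 0.121) and, without those libraries, 0.10 (SE 0.13). Ascl2 was at 5.32, 3.40, 4.92, 10.3 and 3.51 CPM, with 1 high library. Its log2 fold change of 0.38 (SE 0.34) was -0.04 (SE 0.31) without the Car1-high libraries. Bmi1 went from 0.02 (SE 0.14) to 0.18 (SE 0.15) and Tnfrsf19 from 0.28 (SE 0.22) to 0.53 (SE 0.21, edgeR adjusted p = 0.0715) when those were left out.

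**Figure D3:**
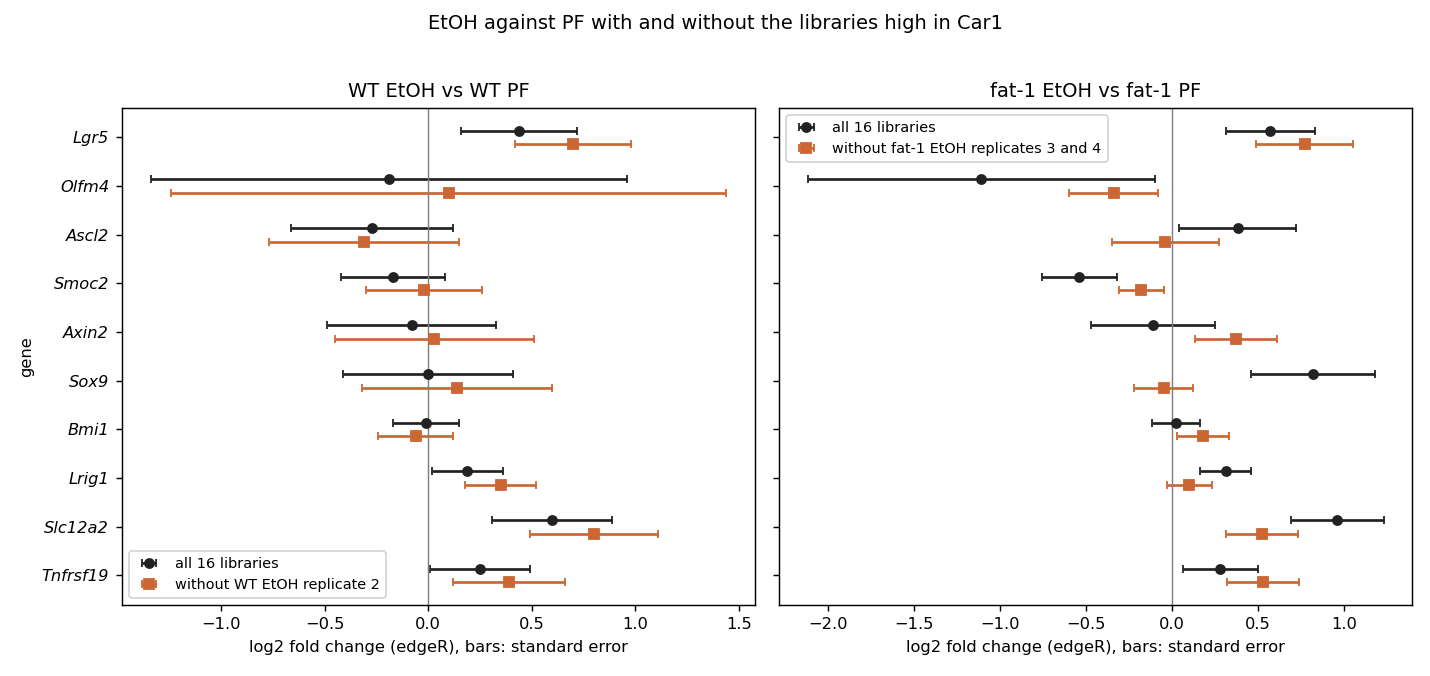
Log2 fold change of EtOH against PF (x axis, bars are the standard error) for the 10 genes (y axis), in WT mice (left) and fat-1 mice (right), with all 16 libraries and with the named Car1-high replicates left out. In fat-1 mice Slc12a2 goes from 0.96 to 0.52 and Sox9 from 0.82 to -0.05.

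The Car1-high libraries were set against the other 14 as a description, with no test because they were picked from the data. They lay below all 14 for 3 genes (Olfm4, Smoc2, Axin2), above all 14 for 3 (Sox9, Lrig1, Slc12a2) and within their range for 3 (Lgr5, Bmi1, Tnfrsf19). The share of all genes outside that range was not counted, so these counts cannot be set against a background. For Ascl2 replicate 3 lay within that range (4.92 CPM) and replicate 4 above it (10.3 CPM against 2.25 to 6.15 CPM). Olfm4 reads per Lgr5 read were 0.178 and 0.122 in them and 15.0 to 59.9 elsewhere. Slc12a2 reads per Smoc2 read were 14.7 to 18.8, against 1.98 to 5.14. So the 10 genes did not move together there: Lgr5 itself, at 10.6 and 11.7 CPM, stayed inside the range of the others. The 8 Paneth cell markers moved with Olfm4 in these libraries, and Lyz1, the lysozyme of Paneth cells, was at 42.7 and 42.3 CPM against 2120 or more elsewhere. The 7 smooth muscle markers were higher in them (summed 3930 and 4070 CPM against 921 to 2630), as were the 4 enteric glia markers (15.8 and 18.7 CPM against 3.40 to 10.1). The 9 epithelial markers were lowest there (10800 CPM in both against 12600 to 19600). The part of these markers in the results was not tested.

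**Figure D4:**
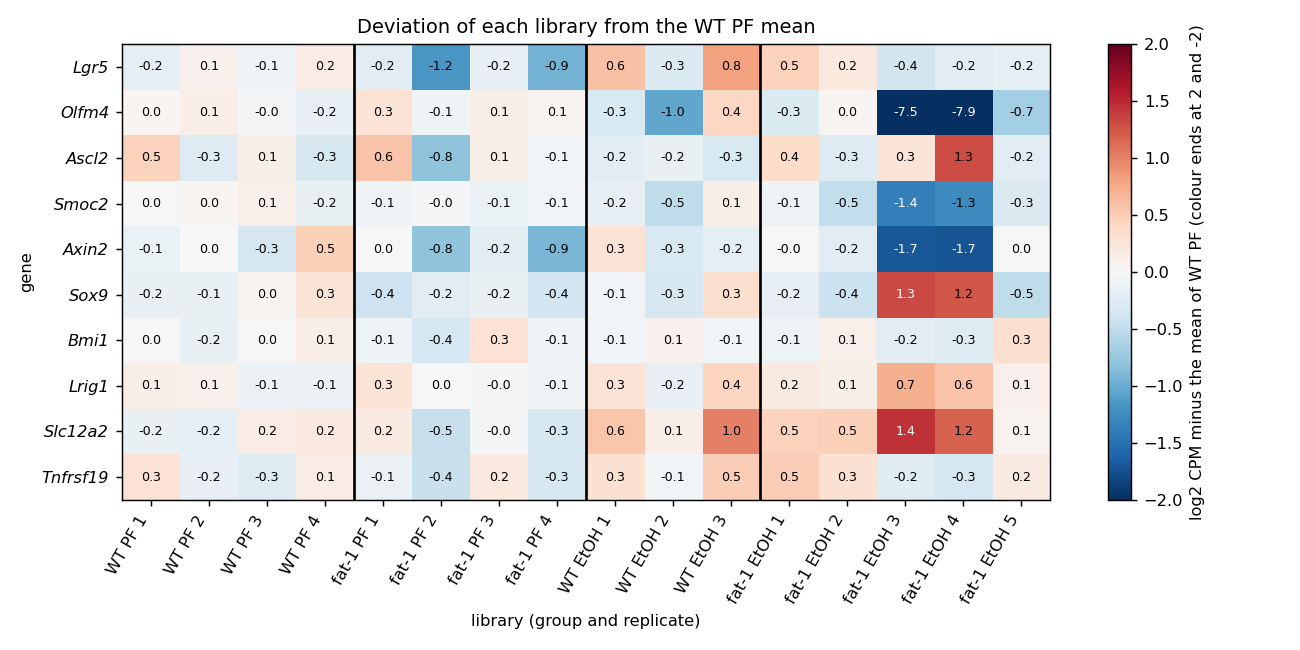
Log2 CPM minus the WT PF mean (colour and printed value) for the 10 genes (y axis) in the 16 libraries (x axis), with lines between groups; the colour ends at 2 and -2. Replicates 3 and 4 of fat-1 EtOH carry the strongest colours, with Olfm4, Smoc2 and Axin2 blue and Sox9, Lrig1 and Slc12a2 red.

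Over the series, Olfm4 was lowest where Car1 was highest. In WT EtOH replicate 2, with 4040 CPM of Car1, Olfm4 was at 185 CPM, the lowest outside the Car1-high libraries. Sox9 in that library was at 12.5 CPM and not high, so the 3 libraries high in Car1 did not all show the same levels.

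**Figure D5:**
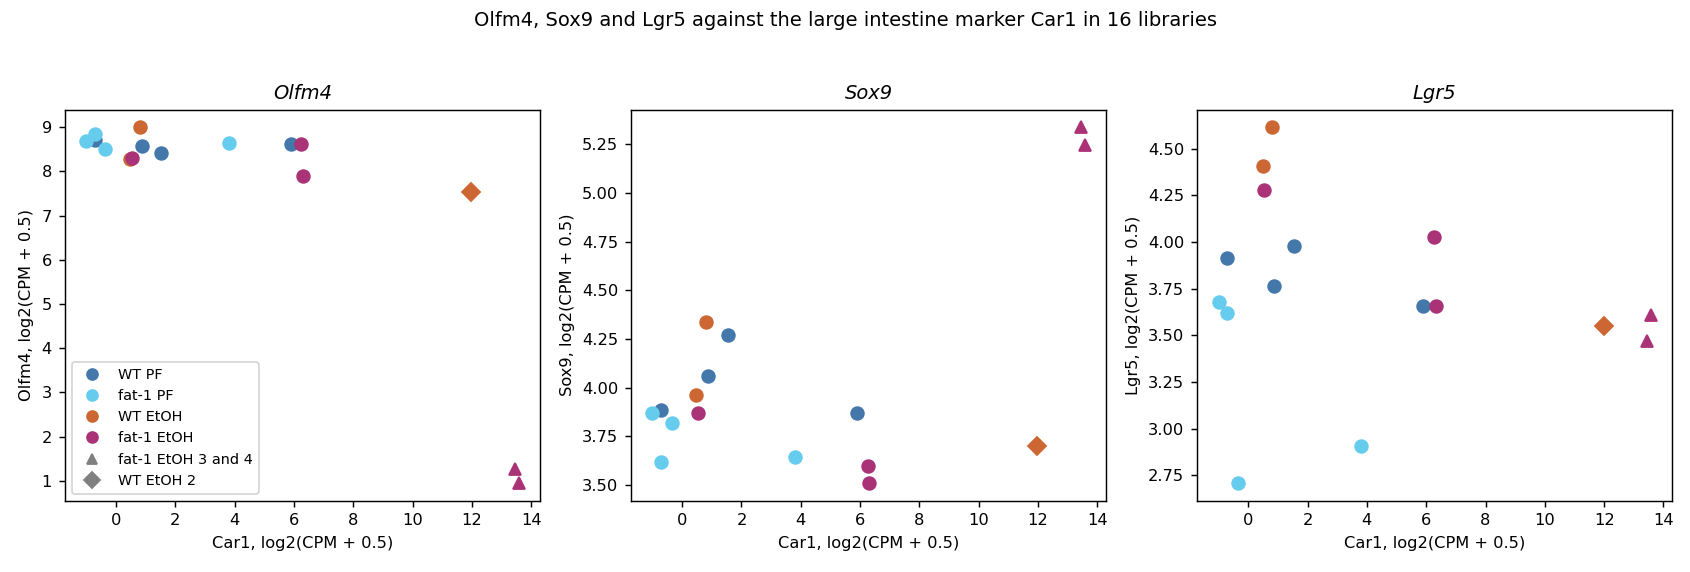
Olfm4, Sox9 and Lgr5 (y axes, log2 of CPM + 0.5) against Car1 (x axis, log2 of CPM + 0.5) in 16 libraries; triangles and the diamond mark the EtOH libraries high in Car1. Olfm4 is low and Sox9 high in the triangles (1.89 and 1.43 CPM, and 39.9 and 37.4 CPM), while Lgr5 stays within the range of the other libraries.

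Between genotypes on EtOH, none of the 10 genes passed the test (0.00724% of all genes, 1 of 13811, was called). Unadjusted p was under 0.05 for 0 of the 10 and 4.86% of all genes, and DESeq2 called 5 genes, none of the 10. This comparison shares its fat-1 EtOH and WT EtOH mice with those above. Ascl2 had the largest positive log2 fold change, 0.66 (SE 0.37, edgeR adjusted p = 0.757), and Olfm4 the largest negative, -0.82 (SE 1.08, edgeR adjusted p = 0.810). Without the Car1-high fat-1 libraries Ascl2 was at 0.22 (SE 0.33) and Olfm4 at -0.08 (SE 0.27). Lgr5 was at -0.44 (SE 0.27), or -0.27 (SE 0.29) without those libraries, and Sox9 at 0.53 (SE 0.39); without them Sox9 was at -0.38 (SE 0.18) and Slc12a2 went from 0.21 to -0.27. No interaction of genotype and diet was called for any of the 10 or for any gene (0%; 8.26% at an unadjusted p under 0.05, with 0 of the 10, and 0 by DESeq2). The interactions ranged from -0.91 (Olfm4, SE 1.52) to 0.83 (Sox9, SE 0.54). Without the Car1-high fat-1 libraries these 2 were -0.15 (SE 0.36) and -0.05 (SE 0.24), so the sign of the Sox9 value turned. The Slc12a2 interaction went from 0.36 to -0.09 (SE 0.29) without them. With all 5 libraries that stand apart left out it was -0.52 (SE 0.25, edgeR adjusted p = 0.995).

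Related gene lists were counted beside the 10 genes in fat-1 EtOH against fat-1 PF mice, where 18.7% of all genes rose and 18.8% fell. In the other 4 comparisons no gene of these lists was called. Without the Car1-high libraries 14.7% of all genes rose and 16% fell, and without replicates 2 and 4 of fat-1 PF 5.99% rose and 7.95% fell. Of 10 further genes enriched in Lgr5+ crypt base cells 3 rose, and the list's median log2 fold change was 0.35 against 0.05 over all genes. Without the Car1-high libraries 2 rose (median 0.29), of which only Cdk6 was among those 3. Without the 2 fat-1 PF libraries 1 rose although the median was 0.55. Without replicate 5 of fat-1 EtOH 5 rose, with Rgmb and Kcnq1 added (median 0.44), where 19.3% of all genes rose. With all 5 libraries that stand apart left out 0 rose (median 0.20), where 4.27% of all genes rose and 7.59% fell. Prom1, a membrane glycoprotein of crypt cells, rose by 2.00 (SE 0.59, edgeR adjusted p = 0.0166), with 443 and 550 CPM in the Car1-high libraries and 47.6 to 222 CPM in the others. Without the Car1-high libraries Prom1 was at 0.44 (SE 0.28, edgeR adjusted p = 0.249). Cdk6, a cell cycle kinase, rose by 0.98, and by 0.79 (edgeR adjusted p = 0.00968) without them. The water channel Aqp4 rose by 1.16 and was at 0.39 (edgeR adjusted p = 0.24) without them, while Cdca7 was at -0.10 (SE 0.12).

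Of 14 tested Wnt targets and feedback genes, 4 rose and 1 fell (median 0.29), with Lef1 among the 4 on 1 library alone. Without the Car1-high libraries 3 rose and 1 fell, and these 3 were not all among the 4. Without replicates 2 and 4 of fat-1 PF 1 rose and 1 fell. The transcription factor Lef1 rose by 3.94 (SE 1.45, edgeR adjusted p = 0.0453), on 18 CPM in replicate 5 of fat-1 EtOH alone against at most 1.11 CPM in any other library. That library also had the highest summed B cell markers, 518 CPM against at most 105 CPM elsewhere, and their part in the result was not tested. Without it Lef1 had too few reads to be tested. Sp5, a Wnt-induced transcription factor, fell by 3.36 (SE 0.55, edgeR adjusted p = 0.000636), with 23.0 and 21.1 CPM in replicates 2 and 4 of fat-1 PF. It was also at 9.65 and 4.65 CPM in the other 2 fat-1 PF mice and at 0.574 to 2.72 CPM in fat-1 EtOH mice, without overlap. Without replicates 2 and 4 of fat-1 PF, Sp5 fell by 2.33 (SE 0.57, edgeR adjusted p = 0.0234). Cd44, an adhesion receptor, rose by 1.62, and by 0.78 (edgeR adjusted p = 0.00383) without the Car1-high libraries. Ephb3 rose by 0.85 and Znrf3, a ligase that removes Wnt receptors, by 0.63, but without those libraries they were at 0.51 (edgeR adjusted p = 0.0811) and 0.40 (edgeR adjusted p = 0.165).

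Of 7 tested Notch pathway genes 2 rose and 1 fell (median 0.19); without the Car1-high libraries 1 rose and 2 fell. Atoh1, the factor that sets secretory cell fate, rose by 1.37 (SE 0.38, edgeR adjusted p = 0.0130), at 69.4 and 87.3 CPM in the Car1-high libraries and 13.3 to 28.6 CPM in the others. Atoh1 was at 0.46 (SE 0.17, edgeR adjusted p = 0.0562) with those libraries left out. Notch2 rose by 0.99 but was at 0.53 (edgeR adjusted p = 0.0873) without replicate 5 of fat-1 EtOH, and the ligand Dll1 fell by 1.67 (SE 0.28, edgeR adjusted p = 0.000781), and by 1.3 (edgeR adjusted p = 0.00195) without the Car1-high libraries. Dll1 was at 37.0, 69.5, 36.1 and 56.3 CPM in fat-1 PF and 18.8, 24.6, 7.46, 11.5 and 15.7 CPM in fat-1 EtOH mice, without overlap, as were 13.4% of all genes in this direction. It was at 29.5 to 41.5 CPM in WT PF and at 16.3 to 21.5 CPM in WT EtOH, where it was not called. Of the genes named from these 3 lists, Cdk6, Cd44, Sp5 and Dll1 were called without replicates 2 and 4 of fat-1 PF, and Cd44, Sp5 and Dll1 without all 5 libraries that stand apart. Those not called without the 2 fat-1 PF libraries still had positive log2 fold changes there, with Prom1 at 1.78 (SE 0.81), Atoh1 at 1.17 (SE 0.51) and Aqp4 at 0.81 (SE 0.53). Notch2 was at 0.81 (SE 0.46), Znrf3 at 0.64 (SE 0.27) and Ephb3 at 0.58 (SE 0.30). Lef1, at 4.37 (SE 2.15), again rested on replicate 5 of fat-1 EtOH alone. With all 5 left out Prom1 was at 0.22 (SE 0.21), Aqp4 at 0.04 (SE 0.23), Ephb3 at 0.23 (SE 0.21) and Atoh1 at 0.25 (SE 0.18).

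Each of the 9 fat-1 libraries was also left out in turn, in fits that called 28.5% to 39.4% of all genes. Prom1, Cdk6, Sp5, Cd44, Ephb3, Atoh1 and Dll1 were called all 9 times. Aqp4 and Znrf3 were called 5 times, Lef1 4 times (and not tested 1 time) and Notch2 3 times. The Wnt list had 2 genes that rose without replicate 2 or 3 of fat-1 PF, and the Notch list had 1 without any 1 of the 4 fat-1 PF libraries or replicates 1 or 5 of fat-1 EtOH.

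Of 12 cell division genes 0 rose and 1 fell, Pcna by 0.24 (median -0.01), which was not called without the Car1-high libraries (-0.14) or in 6 of the 9 fits with 1 fat-1 library left out; without replicate 1 of fat-1 PF 2 rose (Mki67 by 0.73, Mcm5 by 0.49) and 0 fell. Mki67 was at 0.43 (SE 0.22, edgeR adjusted p = 0.135) and Birc5 at -0.35 (SE 0.22). None of the 8 Paneth cell markers was called (median -0.70; Defa17 at -1.24, SE 0.93). Their median was 0.06 and Defa17 was at -0.49 (SE 0.23) with the Car1-high libraries left out. All 7 smooth muscle markers rose (median 1.46; Cnn1 by 1.81), as did 5 of 6 fibroblast markers (Lum by 1.02), 2 of 4 enteric glia markers (Gfap by 2.27) and 3 of 4 tested large intestine markers (Car1 by 10.38). Of 9 epithelial markers 2 rose (Krt19 by 0.59) and 2 fell (Vil1 by 0.88). Of 6 ileal bile acid genes 1 rose, the bile acid receptor Nr1h4 (1.16, SE 0.44, edgeR adjusted p = 0.0496), which was not called without the Car1-high libraries (1.32, edgeR adjusted p = 0.0705) or in 7 of the 9 fits with 1 fat-1 library left out. In the same list Slc10a2 was at 1.42 (SE 1.04) and Fgf15 at -0.99 (SE 1.5). None of 7 B cell markers was called (median 1.69; Fcer2a at 2.49, SE 1.3), and without replicate 5 of fat-1 EtOH their median was 0.12 and Fcer2a was at 0.57 (SE 1.08). Without the Car1-high libraries all 7 smooth muscle and 6 of 6 fibroblast markers rose, 3 of 7 B cell markers rose in fits that kept replicate 5, and 0 of 4 enteric glia markers did. In that setting 1 of 4 large intestine markers rose, Car1 was at 3.91 (SE 2.49), and Krt19 (0.61), Vil1 (-0.39) and Gfap (0.94) were not called. Without replicates 2 and 4 of fat-1 PF 7 of 7 smooth muscle and 3 of 6 fibroblast markers rose, and 0 large intestine, 0 enteric glia, 0 ileal, 0 B cell and 0 epithelial markers were called. Leaving out 1 fat-1 library left 7 smooth muscle, 4 to 6 fibroblast, 1 to 2 enteric glia and 1 to 4 large intestine markers risen. The large intestine count was 1 without replicate 2 of fat-1 PF. Of the epithelial markers 0 to 3 rose and 1 to 3 fell. In these fits 28.5% to 39.4% of all genes were called, risen or fallen.

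Genes whose levels followed Lgr5 were ranked by Spearman correlation of log2 CPM over the 16 libraries, which share groups and library preparation. The first 5 were Kif23 (0.935), Tle3 (0.900), Slc25a37 (0.900), Ang4 (0.900) and Chic1 (0.897), and over the 13 libraries without the 3 EtOH libraries high in Car1 they were at 0.863 to 0.890. These values mix differences between group means with differences within groups; with group means removed the 5 were at 0.753 to 0.915. Among the 10 genes Tnfrsf19 was most like Lgr5 over 16 libraries, at 0.79, and at 0.77 within groups. Over the 13 libraries Slc12a2 (0.84) was above Tnfrsf19 (0.77). Slc12a2 was at 0.40 over 16 libraries and 0.17 within groups. Olfm4 was at 0.28 over 16 libraries, -0.07 over 13 and 0.72 within groups, so its likeness to Lgr5 changed with the libraries and the centring.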

How the data were processed

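Stranded poly(A) RNA-seq libraries were made by the authors from 16 ileum samples, aligned with tophat2 to mm10 and counted per gene with htseq. The deposited values are raw counts; the strand setting is not given in the sources used here. The members and lists were chosen with earlier results of these data known, as were the libraries left out. Genes were filtered with filterByExpr (13811 of 21965 kept; 4158 had no count) and tested with edgeR 4.0.16 (R 4.3.3; TMM, robust quasi-likelihood, all 16 libraries in 1 fit) because cuffdiff2, used in the study, cannot be run on counts. Benjamini-Hochberg adjusted p of at most 0.05 was called. CPM used TMM-adjusted library sizes and log2 CPM a prior count of 2. Each mouse is 1 sample. Named genes were all 10 members in each comparison, the tested gene with the largest rise and fall of each other list in fat-1 EtOH against fat-1 PF, and the 5 genes most like Lgr5; Cdk6, Aqp4, Cd44, Ephb3, Znrf3, Notch2, Pcna, Nr1h4, Rgmb, Kcnq1, Mcm5 and Lyz1 were chosen after their values were seen. The CG marking of the printed promoters was also chosen after the motif matches were seen. The fit was tested on simulated data. Alternatives were DESeq2 1.42.0, limma 3.58.1 voom, other scalings and filters, a replicate block and left-out libraries.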

Additional observations from a re-analysis of the deposited data

Results flagged for a closer look

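Ascl2 was at 10.3 CPM in replicate 4 of fat-1 EtOH, far above the other 4 mice of that group (3.40 to 5.32 CPM); its gap to the nearest value was 0.724 of the group's range, against a limit of 0.71. It was the only such sample among 30 groups of values checked, where chance gives about 1 in 20.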

How the results depend on the processing

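Across 28 alternatives, no member was called in fat-1 PF against WT PF, in fat-1 EtOH against WT EtOH or, over 27, in the interaction. In WT EtOH against WT PF the count of 0 became 1 (Slc12a2) under limma voom and 1 when all 5 libraries that stand apart were left out, in fits that called 20.7% and 3.41% of all genes. In fat-1 EtOH against fat-1 PF the count of 1 became 4 with upper-quartile scaling (Lgr5, Sox9, Lrig1, Slc12a2, with 41% of all genes called). It became 3 with the replicate number as a block (Smoc2, Sox9, Slc12a2, with 34.4%). It became 2 without the 3 EtOH libraries high in Car1 (29.7%) and 0 without the 2 Car1-high fat-1 EtOH libraries (30.8%). It was also 0 without replicates 2 and 4 of fat-1 PF (13.9%) and 0 without all 5 libraries (11.9%). All left-out sets were picked with results of these data known; the last 2, and the list values with libraries left out, were added later, after seeing the data. Leaving out each library in turn gave 1 to 2, with 2 without fat-1 EtOH replicate 1 (Smoc2 added), 2 or 5 (Sox9 added each time). In fat-1 EtOH against fat-1 PF Slc12a2 was called in 25 of 28 alternatives, of which 16 left out 1 library each. Some of those 16 left out a WT library, which is in neither group compared. All fits that lost the call left out libraries that stand apart. The cause of these changes was not tested. The replicate numbers did not pair the mice: same-numbered mice had a mean correlation of -0.0225 over 21 pairs, against 0.00703 over 74 others. Low counts limit Ascl2 (16 to 116 reads per library) and Tnfrsf19 (27 to 88 reads).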
